A study of Mus musculus with 6 samples.

Results

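The enzymes of glucuronidation were followed in the livers of mice fed regular or soy-enriched chow. The list held 10 genes, UDP-glucose pyrophosphorylase (Ugp2), UDP-glucose dehydrogenase (Ugdh) and the UDP-glucuronosyltransferases (UGT) Ugt1a1, Ugt1a6a, Ugt1a9, Ugt2a3, Ugt2b1, Ugt2b5, Ugt2b35 and Ugt2b36, and a probe was taken as a member when its RefSeq accession in the array annotation belonged to one of them. This gave 9 probes for 8 of the 10 genes, among 56605 probes of which 32994 could be named for 22911 genes. Ugt1a1 and Ugt1a9 had no probe under a RefSeq accession and were not analysed here.

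Liver RNA came from 6 male mice that were 12 weeks old when put on the diets, of a strain not given in the sources used here. The control group of 3 mice ate regular chow alone (100%), and the soy group of 3 mice ate a chow of 75% regular food and 25% soy bean, each for 4 weeks. A piece of the right lobe of each liver was hybridized to its own Agilent mouse array in 1 colour, and the labels call the arrays biological replicates. Control 1, control 2 and soy 1 shared slide 1, soy 2 lay alone on slide 2, and control 3 and soy 3 shared slide 3. Of 59305 spots that were not controls, 37010, 36366 and 38163 were well above background in the 3 control livers, compared with 31308, 31988 and 32498 in the 3 soy livers, so the groups did not overlap in this measure. Its part in the results below was not tested.

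Glucuronidation makes small fat-soluble compounds water-soluble by joining glucuronic acid to them. Ugp2 makes UDP-glucose, Ugdh oxidises it to UDP-glucuronate, and the UGT enzymes of the endoplasmic reticulum pass the sugar acid on to bilirubin, steroids, drugs and plant compounds such as the isoflavones of soy. The liver is a main site of this reaction, and transporters of the Abcc family then carry the conjugates into bile or blood.

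Ugdh was up-regulated in soy livers, and it was the 1 listed gene that passed the threshold. The threshold for a probe was an adjusted p below 0.05 (limma, Benjamini-Hochberg over all probes) together with a soy over control ratio of more than 1.5 or less than 0.66, and 1 such probe was enough to call its gene. Of all 22911 genes, 0.340% passed higher in soy and 0.192% lower, against 1 of the 8 measured members higher and 0 lower. On the brightest probe of each gene, 5 of the 8 members (Ugdh, Ugt1a6a, Ugt2b5, Ugt2b35 and Ugt2b36) were higher on every soy array than on any control array, where 9.66% of all genes were, and 1 (Ugt2b1) was lower on every soy array, where 10.8% of all genes were. An unadjusted p under 0.05 was reached by 6 of the 8, against 14.2% of all genes. Their median log2 change was 0.53, beside -0.01 over all genes. All 9 member probes were well above background on all 6 arrays, and none was saturated. The 22911 genes include dim ones, and 13513 of them were well above background on all 6 arrays. Of these 13513 genes, 2712 had an unadjusted p under 0.05 by limma. Without overlap, 1798 of them were higher in soy and 1653 lower, and 69 passed higher and 39 lower.

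Ugdh (NM_009466), which oxidises UDP-glucose to UDP-glucuronate, was measured with a brighter and a dimmer probe, and the brighter gave log2 signals of 14.40, 14.22 and 14.65 in control livers and 15.45, 15.32 and 15.66 in soy livers. All 3 soy arrays lay above all 3 control arrays, with 0.67 between the nearest of them. The log2 change was 1.05 with an SE of 0.145, a 2.08-fold higher signal (95% interval 1.64 to 2.63, adjusted p = 0.0405 by limma). The dimmer probe of Ugdh read 13.95, 14.04 and 14.55 in control livers and 15.33, 15.13 and 15.71 in soy livers. Its groups did not overlap either, but its change of 1.21 (SE 0.203) did not pass, at an adjusted p of 0.0681. The call rested on the set of arrays: with 1 array left out the brighter probe passed only without control 3 (adjusted p = 0.0428) and had adjusted p-values of 0.104 to 0.138 in the other 5 fits, while its change stayed between 0.95 and 1.17. With the slide as a block it did not pass (change 1.09, adjusted p = 0.111), and its change was 1.14 within slide 1 and 1.01 within slide 3. Nor did it pass with an offset of 16 in place of 50 in the background correction (change 1.06, adjusted p = 0.0870). Since RNA was taken from whole tissue, a change in the cells that make it and a change in RNA per cell cannot be told apart.

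**Figure D1:**
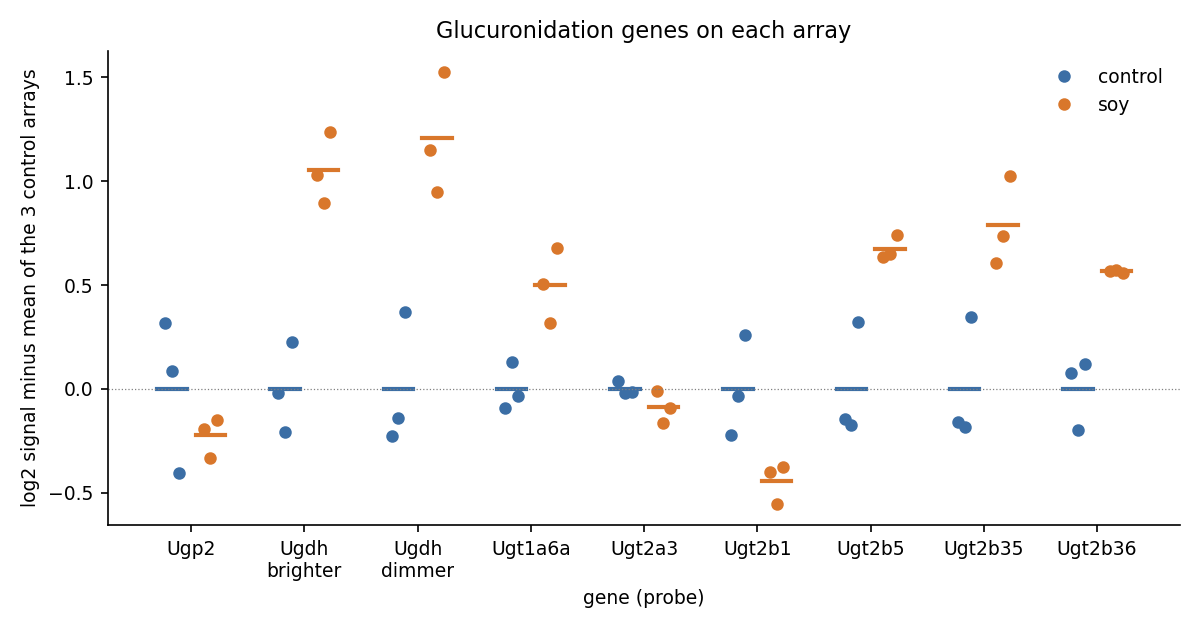
Signal of each member probe on each array as the log2 signal minus the mean of the 3 control arrays; points are arrays (control left, soy right) and short lines are group means. The soy arrays lie above the control arrays for both Ugdh probes, Ugt1a6a, Ugt2b5, Ugt2b35 and Ugt2b36, below them for Ugt2b1, and overlap them for Ugp2 and Ugt2a3.

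The bases just before the start of Ugdh are shown because they hold the letters TGACNNNGC, the core of the antioxidant response element to which Nrf2 (Nfe2l2) and small Maf proteins bind, on both strands. The RefSeq window (GRCm38.p6, chr5:65435843-65436092, minus strand, 5′ to 3′ toward the start) has the matches in capitals:
Ugdh: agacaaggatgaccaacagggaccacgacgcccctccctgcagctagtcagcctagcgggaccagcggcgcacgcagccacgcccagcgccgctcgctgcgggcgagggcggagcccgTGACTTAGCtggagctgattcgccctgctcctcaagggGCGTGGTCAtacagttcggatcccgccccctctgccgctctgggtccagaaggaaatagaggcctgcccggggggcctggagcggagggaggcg
The matches begin 132 and 94 bases before the start, the first on the strand of the gene and the second on the other strand. Searching both strands of the 250 bases before the start, 10.2% of 32851 promoter windows held these letters at least once and 0.658% at 2 or more places. None of the 20 UGT genes with a window did. Such a match is a stretch of letters and no measure of binding.

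Ugp2 (NM_139297), which supplies the UDP-glucose that Ugdh uses, did not pass. It read 14.77, 14.54 and 14.05 in control livers and 14.26, 14.12 and 14.31 in soy livers. All 3 soy arrays fell within the range of the control arrays, and the change was -0.22 (SE 0.182, adjusted p = 0.692), or -0.06 without control 1 and -0.43 without control 3. Within the slide that held control 3 and soy 3 its sign turned, to 0.26. To set the steps side by side, the log2 difference between Ugdh and Ugp2 was taken within each array. Relative to the control mean it was -0.34, -0.29 and 0.63 in control livers and 1.22, 1.23 and 1.39 in soy livers, without overlap. The mean difference was 1.28 (two-sided exact permutation test, p = 0.1, the smallest p that 3 against 3 arrays allow), with 1.54 within slide 1 and 0.75 within slide 3.

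Of the UGT1 enzymes, which share their last exons and include the bilirubin-conjugating form, 1 member was measured. Ugt1a6a (NM_145079), a conjugator of small planar phenols, read 8.13, 8.35 and 8.19 in control livers and 8.73, 8.54 and 8.90 in soy livers. The soy arrays were all higher, by 0.50 on average (SE 0.124, adjusted p = 0.176), which did not pass. Probes listed for 1 UGT1 gene can read others where their exons are shared, which was not tested.

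The UGT2 members conjugate steroids, bile acids and many drugs, and their 5 probes split. Ugt2b5 (NM_009467) read 16.45, 16.42 and 16.92 in control livers and 17.23, 17.24 and 17.33 in soy livers. Ugt2b36 (NM_001029867) read 15.85, 15.58 and 15.90 against 16.34, 16.35 and 16.33. Ugt2b35 (NM_172881) read 10.92, 10.89 and 11.42 against 11.68, 11.81 and 12.10. In each of these 3 genes every soy array was higher than every control array. The changes were 0.67 (SE 0.148, adjusted p = 0.135) for Ugt2b5, 0.57 (SE 0.113, adjusted p = 0.105) for Ugt2b36 and 0.79 (SE 0.177, adjusted p = 0.141) for Ugt2b35, so none passed. Within slide 3 the change of Ugt2b5 was 0.42, against 0.80 within slide 1. The 3 soy arrays spanned little for Ugt2b36, with an SD of 0.00652 against 0.172 in control livers. Without control 3, whose signal was the highest of the control arrays for all 3, the change of Ugt2b5 was 0.84 and passed (adjusted p = 0.0490).

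Ugt2b1 (NM_152811) lay on the other side. It read 14.72, 14.91 and 15.21 in control livers and 14.55, 14.39 and 14.57 in soy livers. The soy arrays were all lower, by 0.15 or more, with a change of -0.44 (SE 0.140, adjusted p = 0.284) that did not pass, and of -0.27 within slide 1 and -0.63 within slide 3. Ugt2a3 (NM_028094) stayed nearly level, at 14.79, 14.74 and 14.74 against 14.75, 14.59 and 14.67. Its change was -0.09 (95% interval -0.31 to 0.13, adjusted p = 0.766), and its groups overlapped.

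Beyond the listed members, 9 of 14 further UGT genes had a probe, and 0 passed. Their median log2 change was 0.51 (0.30 without control 2 and 0.26 within slide 3), and 5 of the 9 were higher in soy livers without overlap. By the size of the change the leading genes were Ugt1a10, Ugt2b38 and Ugt2b37. Ugt2b38 (NM_133894) read 16.93, 16.78 and 17.14 against 17.50, 17.54 and 17.82, a change of 0.67 (adjusted p = 0.111). Ugt2b37 (NM_053215) read 15.17, 14.93 and 15.38 against 15.81, 15.74 and 15.91, a change of 0.66 (adjusted p = 0.105). Both had every soy array above every control array. Ugt1a10 (NM_201641) had the largest estimate, 1.19 (SE 0.650, adjusted p = 0.546), through 1 array. Control 2 read 8.88, the other control arrays 11.38 and 11.68, and the soy arrays 11.75 to 11.88. Without control 2 the change of Ugt1a10 was 0.30 (adjusted p = 0.598). Outside these, Ugt2b34 (0.51) and Ugt2a1 (0.51) were also higher without overlap, whereas Ugt1a6b, Ugt3a1 and Ugt3a2 overlapped on every probe and Ugt8a was well above background on 0 of the 6 arrays. Taking members and further genes together, 7 of 9 measured UGT2 genes were higher without overlap and 1 was lower, beside 9.66% and 10.8% of all genes.

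**Figure D2:**
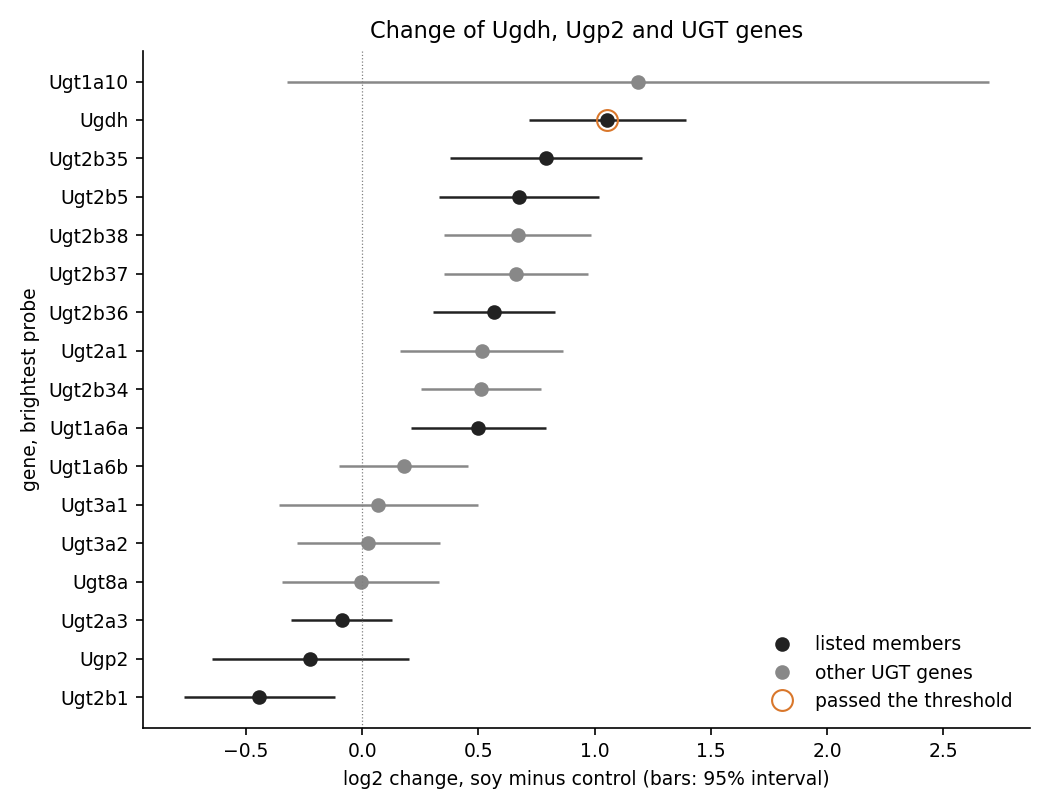
Log2 change, soy minus control, of the brightest probe of each gene with its 95% interval; black points are the listed members, grey points the other UGT genes, and the ring marks the gene that passed. Ugdh lies at 1.05 and Ugt2b1 at -0.44, and the wide bar of Ugt1a10 comes with the low signal on control 2.

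The UGT2 genes are close relatives in a cluster on chromosome 5, and their probes can read each other, which was not tested. The last 100 bases before the start are shown for 4 of them that were higher in soy livers and for Ugt2b1, which was lower, to let their sequences be compared. Capitals mark the longest run common to the 4, and all are RefSeq windows on the minus strand of chromosome 5 (GRCm38.p6), 5′ to 3′:
Ugt2b36: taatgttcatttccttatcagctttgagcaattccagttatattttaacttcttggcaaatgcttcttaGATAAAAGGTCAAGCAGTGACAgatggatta
Ugt2b5: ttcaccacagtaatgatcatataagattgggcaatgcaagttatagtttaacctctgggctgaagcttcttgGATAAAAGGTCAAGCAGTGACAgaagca
Ugt2b37: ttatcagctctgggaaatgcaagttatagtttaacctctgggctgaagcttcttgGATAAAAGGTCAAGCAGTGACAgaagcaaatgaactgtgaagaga
Ugt2b38: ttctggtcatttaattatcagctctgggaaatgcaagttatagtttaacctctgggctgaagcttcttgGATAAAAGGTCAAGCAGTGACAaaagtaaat
Ugt2b1: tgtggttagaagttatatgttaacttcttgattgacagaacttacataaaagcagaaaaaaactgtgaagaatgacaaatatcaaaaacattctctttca
These are chr5:87092556-87092655, chr5:87140341-87140440, chr5:87254789-87254888, chr5:87424204-87424303 and chr5:86926504-86926603, in that order. The shared run has 22 bases and was found before the start of these 4 genes alone among the 32851 windows. Ugt2b5, Ugt2b37 and Ugt2b38 share 62 bases that contain it, whereas the longest stretch that Ugt2b1 has in common with those 62 bases is 8 bases long. The 4 genes with the run of 22 bases were picked among those higher in soy livers, all without overlap. The run was defined from these 4 genes, so their shared direction is no result about the run. Of the measured UGT2 genes without the run, Ugt2b35, Ugt2b34 and Ugt2a1 were also higher without overlap. Ugt2b1 was lower, and the groups of Ugt2a3 overlapped. Ugt2b35, Ugt2b34, Ugt2a1 and Ugt2a3 have at most 6, 7, 7 and 7 bases in common with the 62 bases. Whether the run has a part in the changes was not tested. The run holds AGGTCA, the core letters that many nuclear receptors bind. On either strand, 7 of the 20 UGT genes with a window held AGGTCA, 4 of them in this run, as did 14.0% of all windows. Of the UGT2 genes outside this run, Ugt2b35, higher in soy livers, had AGGTCA 215 bases before the start. Ugt2b34 and Ugt2a1, also higher, Ugt2b1, lower, and Ugt2a3, whose groups overlapped, had no match. Whether these letters have a part in the changes was not tested.

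**Figure D3:**
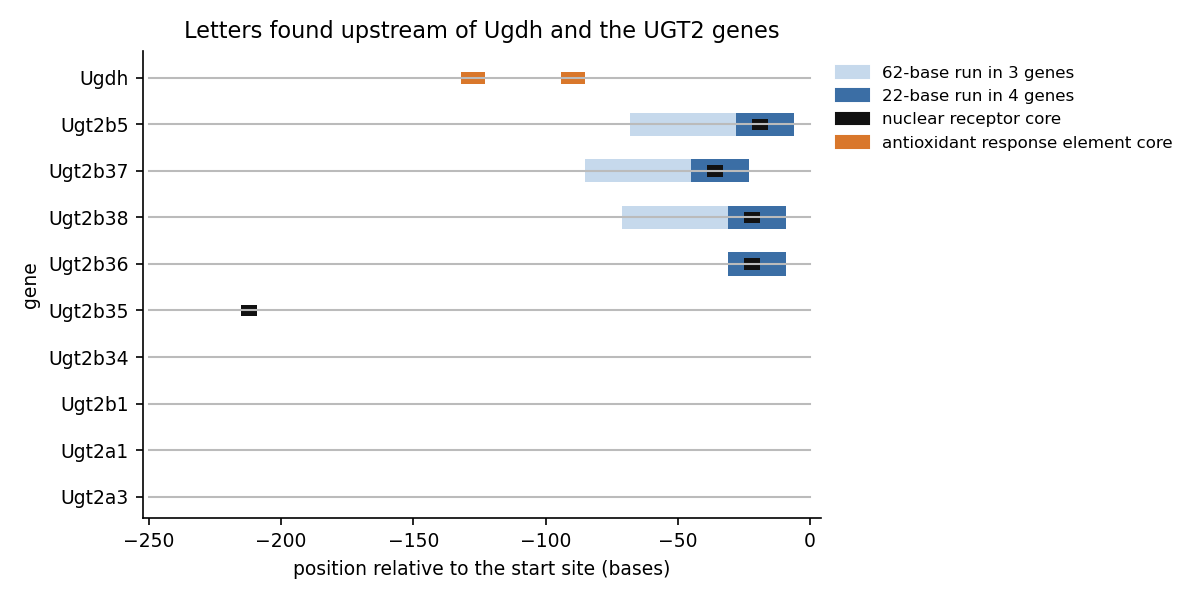
Position of the letters described in the text within 250 bases before the start of Ugdh and 9 UGT2 genes; light bars are the run of 62 bases in 3 genes, dark bars the run of 22 bases in 4, black marks AGGTCA, and orange marks the antioxidant response element core. The runs lie close to the start in Ugt2b5, Ugt2b37, Ugt2b38 and Ugt2b36, and the orange marks occur before Ugdh.

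Among 13497 other genes measured well above background on all arrays, the 5 whose profile over the 6 arrays lay nearest to that of Ugdh, by the root mean square distance between centred log2 signals, were Net1, Gstm4, Pdilt, Acaa1b and Blvrb. Net1 was nearest (distance 0.0285), with 12.81, 12.67 and 13.06 in control livers and 13.86, 13.80 and 14.07 in soy livers. Gstm4, a glutathione transferase, was next (0.107), with 13.25, 13.13 and 13.44 against 14.55, 14.33 and 14.50. The distances of Pdilt, a disulfide isomerase relative, of Acaa1b, a thiolase of peroxisomal fat oxidation, and of Blvrb, a biliverdin reductase, were 0.113, 0.126 and 0.127. The UGT gene nearest to Ugdh was Ugt2b35 at rank 25 (0.173), and Ugt2b1 stood at rank 12284 (0.759). These distances over 6 arrays are a description, and all of these genes share the arrays and the diet groups.

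Genes on either side of the conjugation step were taken from 5 lists. Of the transporters that carry conjugates and organic anions, 1 of 9 passed, higher in soy livers, as did 0.340% of all genes. Abcc3 (NM_029600), which moves glucuronides across the basolateral membrane into blood, read 14.08, 14.04 and 14.01 in control livers and 14.91, 14.78 and 14.93 in soy livers. The groups stood 0.69 apart, and the change was 0.82 (SE 0.0951, adjusted p = 0.0242). Its dimmer probe changed by 0.74 (adjusted p = 0.0819). Without any 1 of the arrays the brighter probe kept a change of 0.80 to 0.87 but did not pass, nor did it with the slide as a block (0.88, adjusted p = 0.126). The list's median change was 0.15, or 0.31 without control 2 and 0.32 within slide 1. The exporters Abcc4 (0.93, adjusted p = 0.155), Abcg2 (0.56, adjusted p = 0.281) and Abcc2 (0.34, adjusted p = 0.337), named after their values were seen, did not pass. They were higher without overlap, as were 9.66% of all genes, and Abcg2 only by 0.000222. Within slides 1 and 3 the change of Abcg2 was 0.93 and 0.34 and that of Abcc2 0.46 and 0.13. On the brightest probes the other 5 transporters overlapped, and Slco1a1, Slco1a4 and Slco2b1 had changes of -0.10, -0.14 and -0.29. With 1 array left out these ranged from -0.25 to 0.05, from -0.46 to 0.31 and from -0.45 to -0.15. Within slides 1 and 3 Slco1a1 changed by -0.15 and 0.30, Slco1a4 by 0.12 and 0.24, and Slco2b1 by -0.40 and -0.03. The other probe of Slco1a1 changed by 0.10.

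Sulfation competes with glucuronidation for phenols and steroids. Of its 13 measured enzymes 1 passed, lower in soy livers, as did 0.192% of all genes. Sult1a1 (NM_133670), a phenol sulfotransferase, read 16.19, 15.96 and 16.18 in control livers and 15.27, 15.00 and 15.26 in soy livers on the probe that passed. Every soy array was lower, by 0.69 or more, with a change of -0.94 (SE 0.121, adjusted p = 0.0331). Its brighter probe changed by -0.89 and did not pass (adjusted p = 0.0729). The probe that passed was lost in each of the 6 fits with 1 array left out, at changes of -1.01 to -0.85, and with the slide as a block (-0.86, adjusted p = 0.158). On the brightest probes the largest change of the list was that of Sult1e1, -1.09 (adjusted p = 0.0750 by limma), which did not pass. Its mean signal was 7.64 in control livers and 6.55 in soy livers, the latter under the level of 6.60 taken as dim. The list's median change was -0.29, with 4 genes lower and 2 higher without overlap, beside 10.8% and 9.66% of all genes. The median was -0.17 without control 2, -0.18 without control 1 and -0.19 without soy 3.

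Of 12 regulators of UGT genes, 1 passed, higher in soy livers, as did 0.340% of all genes. Nr1i3 (CAR), a nuclear receptor that switches on drug-metabolism genes, read 9.36, 9.37 and 9.70 in control livers and 10.30, 10.44 and 10.32 in soy livers on its dimmer probe (NM_001243062), a change of 0.87 (SE 0.123, adjusted p = 0.0427). Its brighter probe (NM_009803) changed by 0.85 without passing (adjusted p = 0.0880). The groups did not overlap on either probe, and with 1 array left out both passed only without control 3 (adjusted p = 0.0364 for the dimmer and 0.0357 for the brighter probe). With the slide as a block the dimmer probe did not pass (0.80, adjusted p = 0.17). Nfe2l2 (Nrf2) changed by 0.25 (adjusted p = 0.550) and its inhibitor Keap1 by 0.38 (adjusted p = 0.279), and neither passed. The median change of the list was 0.10, or 0.019 without control 3, 0.034 without soy 1, and 0.18 and 0.22 without control 2 and soy 3.

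No gene passed in the remaining lists. Of 9 genes that supply or use UDP-sugars, the largest changes were those of Gys2, the liver glycogen synthase (-0.50), Slc35d1, which carries UDP-glucuronate into the endoplasmic reticulum (0.43), and Pgm1, which interconverts glucose phosphates (0.37). With 1 array left out these ranged from -0.80 to -0.30, from 0.26 to 0.56 and from 0.22 to 0.54, and Gys2 changed by -0.25 within slide 1 and -0.11 within slide 3. On the brightest probes only Slc35d1 was without overlap, higher in soy livers as were 9.66% of all genes, and its adjusted p was 0.426. Of 8 genes of glucuronate breakdown and the ascorbate branch, the largest were Cryl1, a dehydrogenase (0.59), Akr1a1, an aldehyde reductase of glucuronate (0.39), and Gulo, the last enzyme of ascorbate synthesis (-0.23, from -0.42 to -0.11 with 1 array left out). Within slides 1 and 3 Cryl1 changed by 0.25 and 1.31 and Gulo by -0.013 and -0.65. Cryl1, Akr1a1 and Gusb, the lysosomal enzyme that splits glucuronides (0.21), were higher without overlap, as were 9.66% of all genes. Their adjusted p-values were 0.331, 0.190 and 0.522. The change of Gusb was 0.13 to 0.29 with 1 array left out, 0.11 within slide 1 and 0.43 within slide 3. The medians of these lists were 0.11 and 0.11, and with 1 array left out they ranged from 0.047 (without control 3) to 0.11 and from 0.034 (without control 1) to 0.17 (without control 2).

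**Figure D4:**
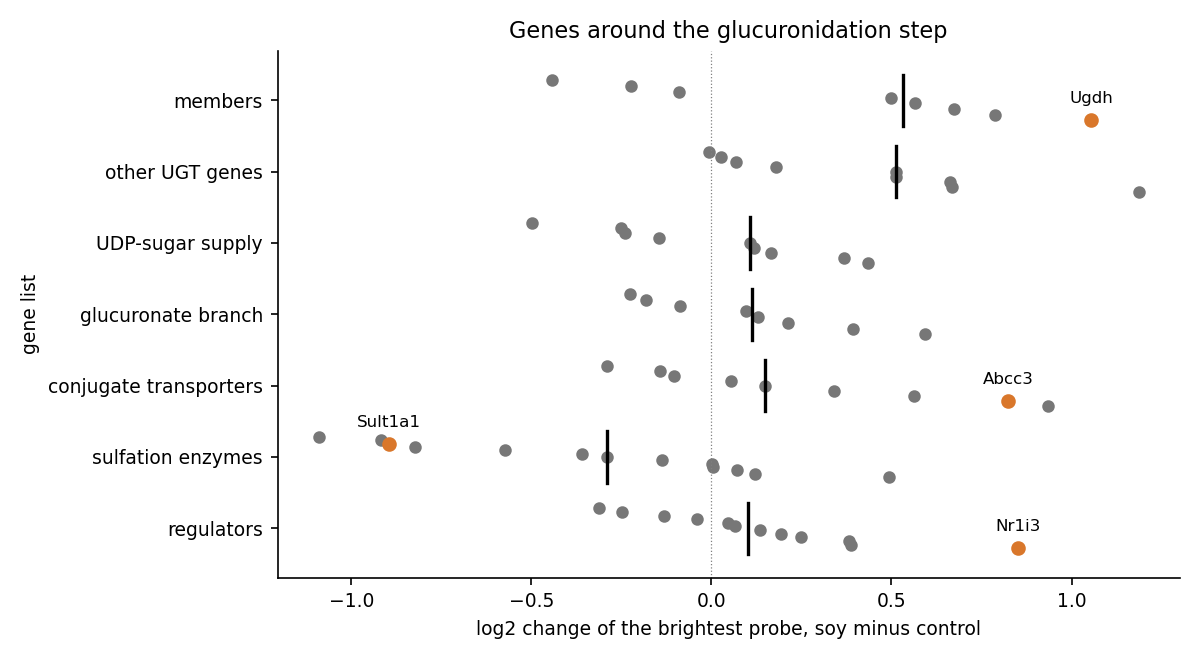
Log2 change of the brightest probe of each gene, soy minus control, by gene list; orange points are genes with a probe that passed, and black lines are list medians. The members and other UGT genes have medians of 0.53 and 0.51, the sulfation enzymes -0.29, and the other lists between 0.10 and 0.15.

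Hepatocyte markers, taken to check the liver label, were well above background on all arrays (8 of 8). The log2 of their summed linear signals was 21.15, 21.19 and 21.13 in control livers and 21.10, 21.04 and 20.99 in soy livers. Of the 8 markers 0 passed, and Serpina1a, the most abundant, changed by -0.00434. The sums were lower on every soy array, and 7 of the 8 genes were lower, among them Tat (-0.76) and, without overlap, Cps1 (-0.47). Within slides 1 and 3 Tat changed by -0.95 and -0.17 and Cps1 by -0.28 and -0.48. Tat passed in 1 of the fits with 1 array left out (adjusted p = 0.0499). Of the other marker lists, 0 of 5 cholangiocyte, 6 Kupffer, 6 endothelial, 6 stellate, 6 red cell and neutrophil, and 7 adipocyte and pancreas genes passed. Their most abundant genes were Spp1, Cd5l, Clec4g, Dcn, Hba-a1 and Cela1. Members of a list did not always share a direction: 2 of 5 cholangiocyte, 1 of 6 Kupffer, 3 of 6 endothelial, 5 of 6 stellate, 0 of 6 red cell and neutrophil, and 7 of 7 adipocyte and pancreas genes were lower. For the adipocyte and pancreas list the log2 of the summed linear signals was 14.89, 15.51 and 15.25 in control livers. It was 14.44, 14.78 and 14.32 in soy livers, without overlap, and followed Cela1. Adipoq and Plin1 were well above background on 0 of the 6 arrays. The part of these cells in the results was not tested.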

How the data were processed

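The members and the gene lists were chosen with earlier results of these data known. The authors deposited, per the file headers, Agilent Feature Extraction 11.5.1.1 output, which holds median intensity values for spots and their surroundings without normalization, a processed signal, and flags; they also deposited a table of log2 values whose array medians were all 7.2 and whose differences from the values used here were 0.0705 at most. Median intensities were background corrected (normexp, offset 50), quantile normalized and log2 transformed, outlier spots were left out and spots of a probe were averaged. Soy and control arrays were compared over all 56605 probes in limma 3.58.1 (R 4.3.3), with Benjamini-Hochberg adjustment over all of them. The study's methods name limma and raw median signals, and no normalization.

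Symbols came from RefSeq accessions (GRCm38.p6 tables), and probes under other identifiers were not used here. Where probes shared a gene, the brightest one, by mean signal over the 6 arrays, stands for it. All members are named with every probe. Of other UGT genes and pathway lists, genes that passed are named, otherwise the 3 with the largest change that at least 1 group measured well above background throughout; of marker lists, genes that passed and the most abundant. Ugt2b34, Ugt2a1, Ugt1a6b, Ugt3a1, Ugt3a2, Ugt8a, Abcc2, Abcc4, Abcg2, Slco1a1, Slco1a4, Slco2b1, Sult1e1, Gusb, Nfe2l2, Keap1, Tat, Cps1, Adipoq and Plin1 were named after their values were seen. Alternatives were no background correction, offset 16, the processed signal and the medians shifted to the 75th percentile, cyclic loess, a filter on dim probes, a trended and robust eBayes, outlier spots kept, a block for the replicate number or for the slide, the deposited values, adjusted p alone, the mean of a gene's probes, and each array left out. The fit was tested on simulated data. With 3 arrays a group, the number of arrays limits the precision. Tables and plots used Python 3.11.15, pandas 2.3.3 and matplotlib 3.10.9.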

Additional observations from a re-analysis of the deposited data

How the results depend on the processing

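Every member kept its direction in each alternative fit and within slides 1 and 3, except Ugp2, which turned to 0.26 within slide 3. The Ugdh call was lost with an offset of 16 (change 1.06, adjusted p = 0.0870), with the slide as a block (1.09, adjusted p = 0.111) and in 5 of 6 fits with 1 array left out (0.95 to 1.17 over all 6); with the replicate block it was kept at 1.05 (adjusted p = 0.0487). Deviations of same-numbered arrays from their group means correlated at 0.116, -0.0574 and 0.106, and those of differently numbered arrays at -0.202 to 0.105. The arrays numbered 1 and those numbered 3 also shared a slide, so these values cannot decide whether replicate numbers pair the arrays. Over all 22911 genes 122 passed, 48 with the offset of 16, 16 with the slide block and 51 with the replicate block. With the filter on dim probes 313 passed, with the processed signal 5892, and with 1 array left out 18 to 130. The following counts stand beside these. The number of member genes that passed was 0 with the offset of 16 or the slide block, 0 to 2 with 1 array left out, and 4 with the processed signal, under which 5332 of 22911 genes passed higher in soy and the median probe shifted by 0.13 (0.13 also for the 75th-percentile shift); relative to it, Ugdh changed by 0.97. Of the 60 measured pathway genes, 3 passed. The count was 0 with the offset of 16, the replicate block or the slide block, and 12 with the processed signal. It was 5 with the filter on dim probes and 0 to 3 with 1 array left out. For other UGT genes the median change was 0.30 to 0.59 with 1 array left out and 0.26 within slide 3. For the transporters it was 0.32 with the processed signal, 0.26 with the 75th-percentile shift, 0.25 with the slide block, 0.32 within slide 1, 0.24 within slide 3, and 0.10 to 0.31 with 1 array left out. For sulfation enzymes it was -0.47 with the filter on dim probes and -0.11 within slide 1. That filter can keep a gene through the group where it was high alone, so its median is not independent of the changes. For regulators the median was 0.20 within slide 3 and 0.019 to 0.22 with 1 array left out. The difference between Ugdh and Ugp2 was 0.75 within slide 3. Slide 2 held soy 2 alone and gave no within-slide value. Leaving out an array leaves 2 arrays in its group; the cause of the other shifts was not tested.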
